A study of Mus musculus with 8 samples.

Results

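The clustered histone genes are the genes of the Hist1 to Hist4 clusters, which encode the linker histone H1 and the core histones H2A, H2B, H3 and H4. All protein-coding genes of the deposited table whose symbol begins with Hist1h, Hist2h, Hist3h or Hist4h were taken, which gave 54 of the 30387 genes in the table. RNA had been sequenced from white adipocytes isolated from the epididymal fat of male mice after 4 weeks on a standard diet (SD, called normal chow in the labels) or a Western-type high-fat diet (HFD). Ad-Yap/Taz-KO mice (KO) carried floxed alleles of both Yap and Taz together with Adipoq-Cre, so that both genes were deleted constitutively in cells that use the adiponectin promoter, and wild-type (WT) littermates served as controls. This gave 4 groups with 2 libraries each, and the series text puts the start of the diets at week 5 whereas the study's methods give a later age. The libraries were made from total RNA after removal of ribosomal RNA and without selection for a poly(A) tail. Values are normalized counts, that is reads on the exons of a gene divided by a factor for the library and rounded.

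Histones package DNA, and the bulk of them is needed when DNA is copied. The genes of the clusters are transcribed mainly in S phase, and most of their mRNAs end in a short stem-loop in place of a poly(A) tail. The stem-loop is bound by SLBP, the precursor is cut a few bases downstream of it by a complex that contains the U7 snRNP, and the mRNA is degraded once replication stops. In resting and differentiated cells some clustered genes are also read through the stem-loop to a poly(A) site further downstream, and histones are then supplied largely by replacement genes outside the clusters. Mature adipocytes do not divide.

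The 54 genes comprised 6 of H1, 13 of H2A, 14 of H2B, 9 of H3 and 12 of H4. By their symbols, 46 belong to Hist1 on chromosome 13, 5 to Hist2, 2 to Hist3 and 1 to Hist4. By position Hist1h2al, at 51202688 on chromosome 13, lies far from the other Hist1 members. GENCODE vM21 lists it as a processed pseudogene, although the table types it as protein-coding. All 12 H4 genes encode the same protein, and Hist1h2bc, Hist1h2be and Hist1h2bg encode 1 protein among them. Such copies are hard to tell apart by reads. The share of 75-base words of a member's exons that occur in no other annotated gene lay between 10.7% in Hist1h2ai and 100% in 5 members, and was under 50% in 25 of the 54. The authors left out reads that aligned to several places, so the counts of near-identical copies are uncertain and understate their level.

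The stem-loop was searched in the annotated transcripts (GENCODE vM21, GRCm38) as an arm GGNNCT, a loop TNTN and an arm AGNNCC in a row, with N for any base. It was found in 39 of the 54 members. In the 120 bases after the stop codon, 29 of the 19597 protein-coding genes annotated over that full window held it (0.148%). Of these 29, 22 were members, and only 25 of the 54 members had the full window. In all 28 matching members of H1, H2A, H2B and H3 the stem began with GGCTC, whereas in all 11 matching H4 genes it began with GGCCC or GGTCC. Below, the 16 bases of the match are in capitals with 5 flanking bases on each side, for the members on which the comparisons turn. The positions are those of the printed bases on GRCm38.
Hist1h1c, chr13:23739507-23739532, plus strand: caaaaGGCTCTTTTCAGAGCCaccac
Hist1h1d, chr13:23555782-23555807, plus strand: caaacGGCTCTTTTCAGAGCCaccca
Hist1h2be, chr13:23585526-23585551, minus strand: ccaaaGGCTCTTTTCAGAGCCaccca
Hist2h2ac, chr3:96220413-96220438, minus strand: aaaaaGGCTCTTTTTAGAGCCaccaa
Hist1h3c, chr13:23745042-23745067, minus strand: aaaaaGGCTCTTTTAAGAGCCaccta
Hist1h4f, chr13:23551286-23551311, minus strand: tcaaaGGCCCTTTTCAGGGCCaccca
Hist1h4i, chr13:22040961-22040986, minus strand: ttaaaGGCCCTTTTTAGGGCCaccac

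The match began 21 to 40 bases after the stop codon in these members and in Hist1h1e. They differ in how far the counted exons go on beyond it. In Hist1h1d the counted model ended 28 bases past the stem-loop, in Hist1h3c 34, in Hist1h4f 33 and in Hist2h2ac 57. It went on for 330 bases in Hist1h4i, 840 in Hist1h1c and 1789 in Hist1h2be. Members whose model ran over 150 bases past the stem-loop, or had a longer 3′ UTR than that and no stem-loop match, are called extended here. The others, including those whose model ends at or before the stem-loop, are called short. With a match the class follows where the span in the table ends, and without a match it follows the 3′ UTR in GENCODE vM21. Several short members have a long 3′ UTR in GENCODE vM21, such as Hist1h1d with 4931 bases, Hist1h1e with 1209 and Hist1h4d with 822. The classes thus describe the counted models and not the full transcripts. The limit of 150 was chosen after the values had been seen, between Hist1h4a with 108 bases and Hist3h2ba with 169. There were 14 extended and 40 short members. Hist1h2bc is extended by its 3′ UTR of 742 bases and holds no match in an annotated transcript. Hist1h2bc and Hist1h2be are annotated with a distant exon, and their spans in the table cover 8290 and 37383 bases.

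A RefSeq window from 250 bases before to 50 after the start (GRCm38.p6) could be matched to 48 members, searched on both strands. The CCAAT box (CCAAT) was in 40 of the 48 windows (83.3%) against 37.9% of 27025 windows of all genes, and the TATA box (TATAAA) was in 29 (60.4%) against 14.2%. The octamer (ATTTGCAT), which is a known element of H2B promoters, was in 10 (20.8%) against 1.75%. The 10 were 6 H2A and 4 H2B genes. GGAATG, the core letters bound by the TEAD partners of YAP and TAZ, was in 3 windows (6.25%) against 14.6% of all windows.

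The libraries held 13.99 to 22.3 M reads on genes, and the worth of 1 read lay between 0.795 and 1.135 normalized counts. Wwtr1, which encodes TAZ, had 5594 and 4743 normalized counts in WT against 2441 and 1957 in KO mice on SD, and 7121 and 6807 against 2060 and 2707 on HFD. Yap1 had 2776 and 2717 against 1669 and 1699 on SD, and 2468 and 2333 against 1549 and 2068 on HFD, where its log2 fold change of -0.42 was not called (adjusted p = 0.059, limma). The adipocyte markers Adipoq, Plin1, Lep, Cidec, Lipe, Fabp4 and Retn were present in every library, and 6 of the 7 were called lower in KO than in WT mice on HFD. Their sum was 342924 and 335705 in WT mice on HFD, and 162403 and 80293 in KO mice on HFD. The 10 macrophage markers summed to 2292 and 2291 in WT against 56077 and 43222 in KO mice on HFD, and to 5119 and 4738 against 39349 and 24641 on SD. All 10 were called higher in KO mice on both diets, and none was at 0 in any library. Lymphocyte markers were lower, with sums of 22 to 801, and Cd3g was at 0 in both WT HFD libraries. On HFD the KO mice were called higher in 2 of 5 lymphocyte, 1 of 5 endothelial, 2 of 5 fibroblast and progenitor, and 2 of 5 erythroid markers, and 1 of 5 mesothelial markers was called higher and 1 lower. The WT HFD libraries were unusually alike in genes with high counts. In genes with a mean of 1000 to 5000 their squared difference was 5.86 times the Poisson expectation, against 25.8, 56.4 and 83.8 times in the other groups. In genes with a mean of 5 to 20, the range that holds 18 of the 31 histone genes tested, the ratio was 4.72 in WT HFD and 4.62 to 6.23 in the other groups. The effect of counting them as 1 sample is therefore given with the results.

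The clustered histone genes were a small part of the counts. Their counts summed to 2183 and 2142 in WT and 2172 and 2217 in KO mice on SD. On HFD they summed to 3029 and 3093 in WT and 2456 and 1988 in KO mice. Per M normalized counts of the library the sum lay between 131 and 149 in all 8 libraries, with the WT HFD libraries highest. No member was at 0 in every library, and 22 were above 0 in all 8. The largest contributors were Hist1h1c and Hist1h2bc, which together made up 61.8% of the mean sum.

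**Figure D1:**
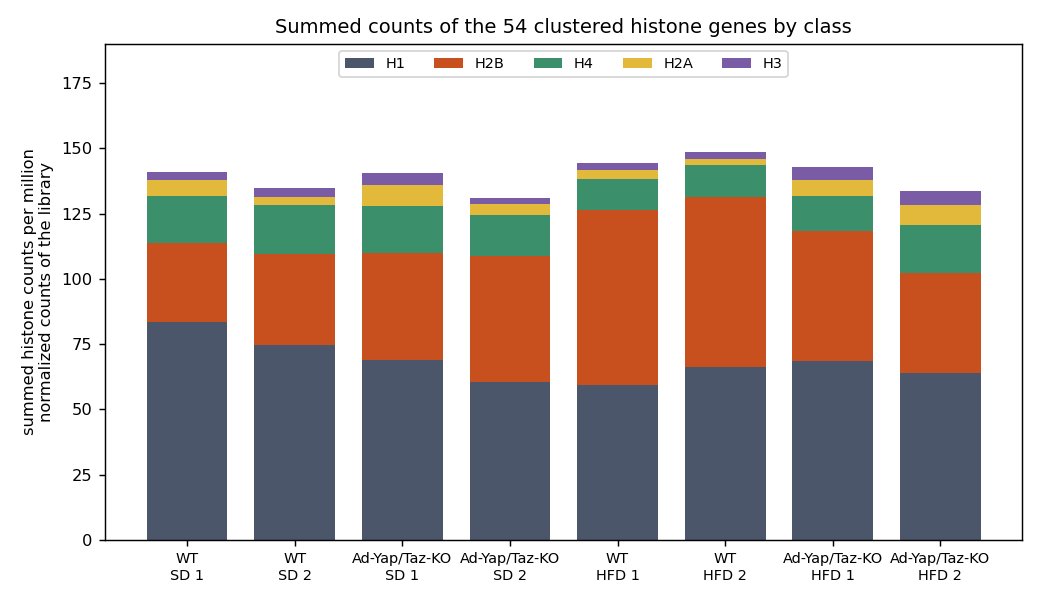
Summed counts of the 54 clustered histone genes in each of the 8 libraries, per M normalized counts of the library, stacked by histone class. The bar height stays between 131 and 149, while the H2B part is largest in the 2 WT libraries on HFD.

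The make-up of this sum varied more than its size. H2B genes made up 21.3% and 25.9% of it in WT mice on SD, and 46.6% and 43.7% in WT mice on HFD. In KO mice their share was 29.0% and 36.8% on SD and 35.0% and 28.6% on HFD. Both WT HFD libraries were thus above the other 6. This share was carried by Hist1h2bc and Hist1h2be. The other 12 H2B members summed to 80 and 91 normalized counts in the WT libraries on SD, to 70 and 56 in those on HFD, and to 177 and 162 in the KO libraries on HFD. H1 genes gave between 41.1% and 59.4% of the sum, with the 2 highest shares in the WT libraries on SD.

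Levels of different genes were compared as the mean over the 8 libraries per kb of counted exon. By this measure Hist1h2bc led with 778 normalized counts per kb, followed by the linker histone gene Hist1h1c with 588 and Hist1h1e with 230. The first place of Hist1h2bc is uncertain. Its length was taken as 736 bases, the GENCODE vM21 exons inside its span in the table, which is less than its 3′ UTR of 742 bases alone. Then came 3 H4 genes, Hist1h4h with 143, Hist1h4d with 138 and Hist1h4c with 68.7, and then Hist1h2be with 62.7. Hist1h1d (44.9), Hist1h2ak (31.5), Hist1h2bj (31.3), Hist1h1b (30.5) and Hist1h4a (28.8) completed the 12 highest. The order differed between the groups. In WT mice on SD Hist1h1c led with 636 per kb against 472 for Hist1h2bc, whereas in WT mice on HFD Hist1h2bc had 1302 and Hist1h1c 727. Hist1h2be had 31.6 per kb in WT mice on SD and 148 in WT mice on HFD. Over the libraries, most neighbours in this order overlapped in their level per kb. The exceptions were Hist1h1c with Hist1h1e and, barely, Hist1h4d with Hist1h4c. Of the 12, 4 were H1, 4 H4, 3 H2B and 1 H2A, and none was an H3 gene.

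Several of the highest members showed no called difference in any comparison. The normalized counts of Hist1h1e were 217 and 167 in WT and 201 and 123 in KO mice on SD, and 163 and 125 against 180 and 199 on HFD. Hist1h4h had 65 and 77 against 80 and 70 on SD, and 62 and 80 against 56 and 51 on HFD. Hist1h4d had 88 and 54 against 41 and 51 on SD, and 48 and 52 against 34 and 65 on HFD. Hist1h4c lay between 20 and 34 in all 8 libraries. These 4 genes have short models, and their log2 fold changes between KO and WT mice on HFD were 0.40, -0.39, -0.08 and 0.26, with standard errors of 0.30 to 0.55.

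Calls of a difference required an adjusted p from limma, by Benjamini-Hochberg over all genes, not above 0.05 together with an absolute log2 fold change not below 0.59. Of the 54 members, 31 had a mean of at least 5 normalized counts and were tested, 20 with short and 11 with extended models. The 23 members below this limit summed to between 18 and 86 normalized counts per library. A member that is high in 1 group alone passes this limit more easily than one that is low throughout. The fold changes are on the scale of log2(normalized count + 1), which understates changes of low genes.

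Adipocytes of KO and WT mice on HFD were compared to see what loss of YAP and TAZ did under the obesogenic diet. Of the 31 members tested, 9 were called (29.0%), against 32.2% of all 18800 genes. The histone genes were thus called about as often as genes in general. Called higher were 6 members (Hist1h1a, Hist1h1b, Hist1h1d, Hist2h2ac, Hist1h3c and Hist1h4f), where 17.1% of all genes were called higher. Called lower were 3 members (Hist1h1c, Hist1h2bc and Hist1h2be), where 15.1% of all genes were called lower. The 6 higher members have short models and the 3 lower members extended ones, as a description only. Of the 6, Hist1h4f and Hist1h3c reached the mean of 5 only through the KO HFD libraries, without which their means were 2.5 and 3.67, and the same held for Hist1h3a, which was not called. Without these 3, 7 of 28 members were called (25.0%), 4 higher and 3 lower. The median log2 fold change over the members tested was 0.90, against 0.09 over all genes. It was 0.90 as well with Hist1h4f and Hist1h3c at the bounds given below. The median was 0.53 without the 3 members that passed through the KO HFD libraries, 0.36 without the second WT HFD library, 0.50 without the second KO HFD library, 0.43 with a pseudocount of 8, 0.58 with both WT HFD libraries merged into 1, 0.02 with quantile normalization and -0.39 over the 7 members with a mean of at least 50.

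**Figure D2:**
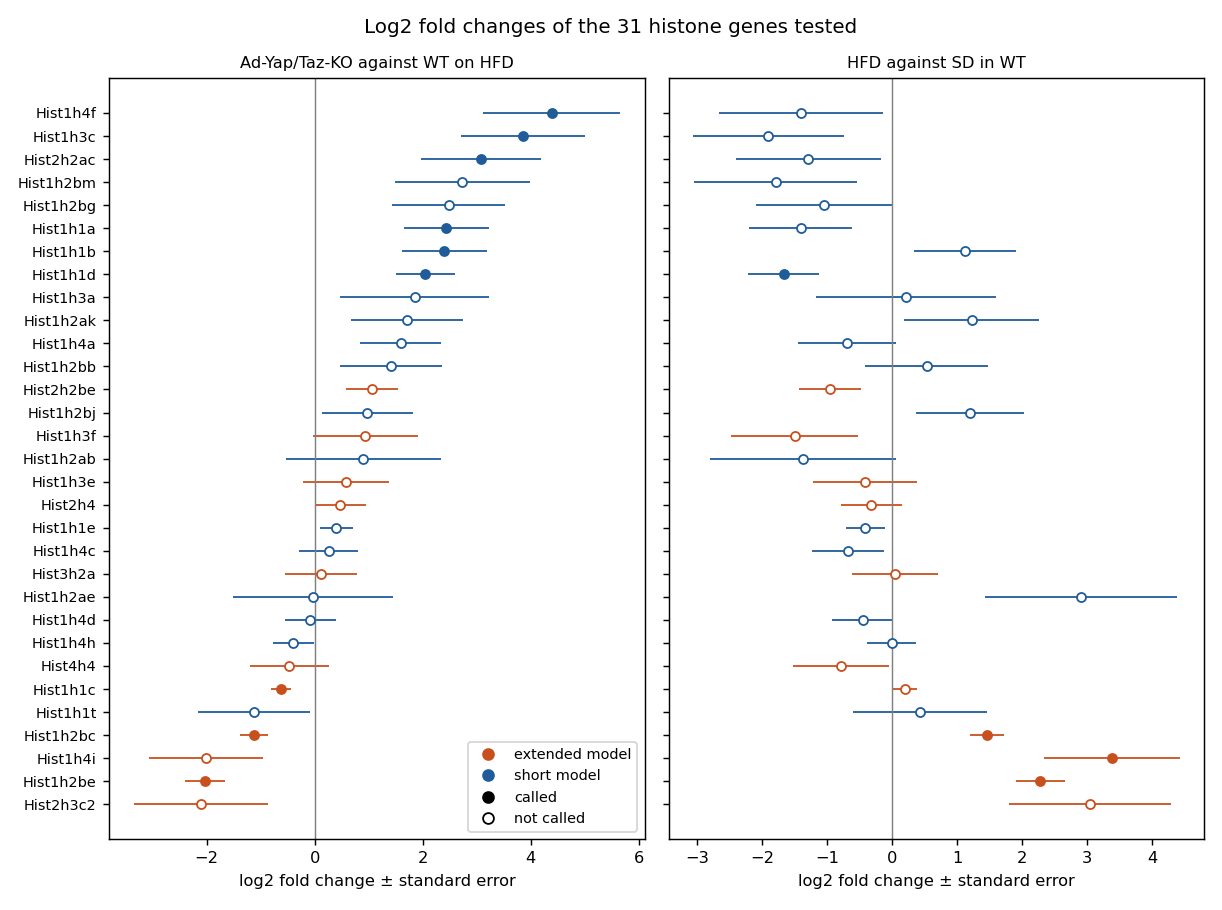
Log2 fold changes with their standard errors for the 31 histone genes tested, KO against WT on HFD on the left and HFD against SD in WT on the right, in the order of the left panel. Filled points were called, and colours mark short and extended gene models. On the left the called short models are above 0 and the called extended models below 0.

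Hist1h2be (ENSMUSG00000047246, chromosome 13, 23583742 to 23621124), an H2B gene, had the largest log2 fold change among the members called lower. It had 355 and 365 normalized counts in WT against 112 and 68 in KO mice on HFD. The WT HFD libraries stood far above the other 6, which lay between 54 and 112. The log2 fold change was -2.03 (standard error, SE, 0.37, adjusted p = 0.0013). This call held under each of the 11 alternatives to the processing and without any of the 8 libraries. In GENCODE vM21, 20.3% of its counted exon bases overlap exons of Hist1h1e and Gm11398 on the same strand. In the deposited table the span of Hist1h1e begins at 23621755 and does not overlap that of Hist1h2be.

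Hist1h2bc (ENSMUSG00000018102, chromosome 13, 23684199 to 23692488), which encodes the same H2B protein, had 987 and 930 normalized counts in WT against 571 and 338 in KO mice on HFD. The groups did not overlap, and the log2 fold change was -1.12 (SE 0.26, adjusted p = 0.0056). With both WT HFD libraries merged into 1 the call was lost, with a log2 fold change of -1.12. Left out 1 at a time, the second KO HFD library moved the log2 fold change to -0.75 and the first WT HFD library to -1.08. Hist1h1c, the most abundant H1 gene in this table, had 1056 and 1213 against 871 and 620. Its log2 fold change of -0.62 (SE 0.19, adjusted p = 0.021) lay close to the limit of 0.59. The call held in 5 of 11 alternatives, and with all libraries scaled to the same total the log2 fold change was -0.24.

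Among the members called higher, 3 encode linker histones. Hist1h1b, which encodes a linker histone linked to dividing cells, had 6 and 15 normalized counts in WT against 56 and 54 in KO mice on HFD. Its log2 fold change was 2.40 (SE 0.78, adjusted p = 0.031). Hist1h1d had 10 and 10 against 43 and 46, with a log2 fold change of 2.05 (SE 0.55, adjusted p = 0.012). Hist1h1a had 2 and 7 against 21 and 31, with a log2 fold change of 2.44 (SE 0.79, adjusted p = 0.030). In all 3 genes both KO libraries were at least 3-fold above both WT libraries. The calls of Hist1h1a and Hist1h1b each held in 6 of 10 alternatives and 5 of 8 left-out libraries. Without the first WT HFD library their log2 fold changes were 1.73 and 1.81 (adjusted p = 0.16 and 0.17, limma), and without the second they were 3.14 and 2.9998. Of the 75-base words of Hist1h1a and Hist1h1b, 100% occurred in no other gene.

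The other members called higher were near the detection limit in WT mice on HFD. Hist1h4f (H4) was at 0 in both WT libraries and had 19 and 21 normalized counts in KO mice, which makes it at least 6.66-fold higher when 3 reads per library are taken as the floor. Hist1h3c (H3) was also at 0 in both WT libraries and had 13 and 14 in KO mice, at least 4.50-fold higher. Both reached the mean needed for testing through these high values, so their calls are no independent support for the difference. Hist2h2ac (H2A) had 1 and 0 against 12 and 10 (adjusted p = 0.049, limma), and 27.1% of its exon bases are shared with Gm44492 on the opposite strand. The call of Hist2h2ac held in 3 of 10 alternatives and 2 of 8 left-out libraries, the fewest among the 9 called members. Of all 54 members, 15 were at 0 in both WT HFD libraries and 3 in both KO HFD libraries, whereas on SD the numbers were 6 and 7. How many other genes with low counts were at 0 in these groups was not counted, so these numbers are a description only.

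**Figure D3:**
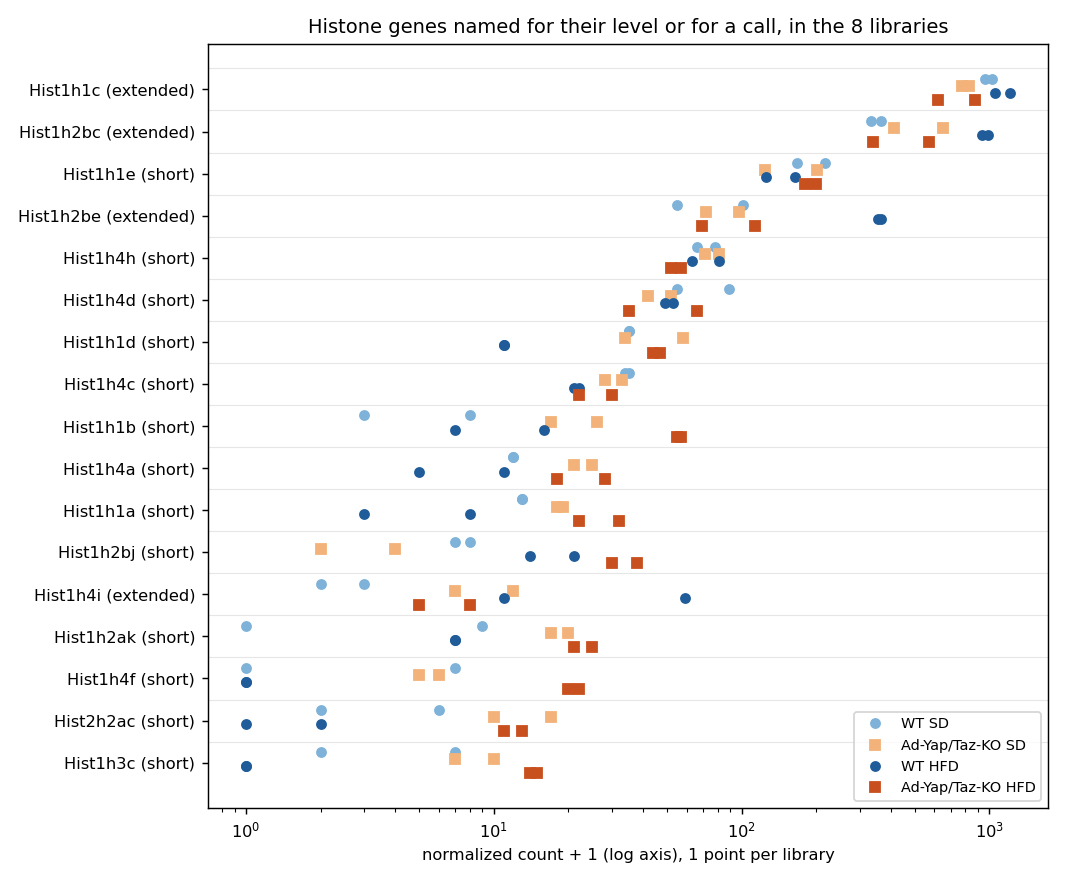
Normalized counts plus 1 on a log axis in each of the 8 libraries, for the 12 histone genes with the highest level per kb and the others called in a comparison, with the type of gene model beside the symbol. Hist1h2be and Hist1h2bc are highest in both WT HFD libraries, and Hist1h1b and Hist1h4f in both KO HFD libraries.

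The number of calls changed when libraries were left out, both for the histone genes and for genes in general. With both WT HFD libraries merged into 1, 2 members were called, Hist1h1d and Hist1h2be, and 18.3% of all genes. Without the second KO HFD library, which had the lowest sum of adipocyte markers, only Hist1h2be was called, and 19.6% of all genes. Without the first WT HFD library 2 members and 21.6% of all genes were called, and without the second 5 members and 19.3%. Without the first KO HFD library 4 members and 31% of all genes were called. The log2 fold change of Hist1h1d stayed between 2.00 and 2.10 over the libraries left out, and its call held in 7 of 8.

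On SD, KO and WT adipocytes were compared for the same effect without the obesogenic diet. None of the 31 members was called by limma, against 4.71% of all genes. The 3 members with an unadjusted p under 0.05 are named as a description, without a comparison to all genes at that limit. Hist1h1b had 7 and 2 normalized counts in WT against 16 and 25 in KO mice, with a log2 fold change of 2.10 (SE 0.78, adjusted p = 0.18). Hist1h2ak had 0 and 8 against 19 and 16 (adjusted p = 0.21, limma). Hist1h2bc had 332 and 363 against 413 and 646, with a log2 fold change of 0.57 (SE 0.26, adjusted p = 0.29), which has the opposite sign to its change on HFD. The median log2 fold change of the members was 0.17, against -0.01 over all genes.

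In WT mice, HFD was compared with SD. Of the 31 members, 4 were called (12.9%), against 18% of all genes. Hist1h2bc, Hist1h2be and Hist1h4i were called higher on HFD, where 8.74% of all genes were called higher, and Hist1h1d was called lower, where 9.22% of all genes were. This comparison and the one of genotypes on HFD share the WT HFD libraries, so their values are not independent of each other. In the same comparison 9 of 10 macrophage, 3 of 5 erythroid and 3 of 5 endothelial markers were called lower on HFD, as were 1 lymphocyte and 1 mesothelial marker, and of 5 fibroblast and progenitor markers 1 was called higher and 2 lower. The adipocyte markers summed to 182669 and 196613 on SD and to 342924 and 335705 on HFD, and 2 of the 7 were called higher. The part of other cells in the histone counts was not tested. Hist1h2be had 54 and 100 normalized counts on SD against 355 and 365 on HFD, with a log2 fold change of 2.28 (SE 0.37, adjusted p = 0.0023). Hist1h2bc had 332 and 363 against 987 and 930, with a log2 fold change of 1.46 (SE 0.26, adjusted p = 0.0037). In both genes each HFD library was above each SD library.

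Hist1h4i, an H4 gene with an extended model, had 1 and 2 normalized counts on SD against 10 and 58 on HFD. The HFD libraries differed from each other more than 5-fold, and both SD values lay under the floor of 3 reads, so the fitted log2 fold change of 3.38 (SE 1.05, adjusted p = 0.040) depends on the pseudocount. It was 2.17 without the second WT HFD library (adjusted p = 0.33) and 4.59 without the first. The call held in 5 of 10 alternatives. Hist1h1d had 34 and 34 on SD against 10 and 10 on HFD, with a log2 fold change of -1.67 (SE 0.55, adjusted p = 0.049), and this call held in 3 of 10 alternatives. The median log2 fold change was -0.41 over the members and -0.08 over all genes, and with Hist1h4f and Hist1h3c, both at 0 in WT mice on HFD, and Hist1h2ae, at 0 in WT mice on SD, taken at their bounds it was -0.22. The median over the members turned to 0.12 with quantile normalization and was -0.01 at a mean of at least 50 and -0.81 with equal library totals. It was -0.22 without the first WT SD library and -0.19 without the second WT HFD library. With both WT HFD libraries merged into 1 or without the first WT SD library, only Hist1h2be was called, and 2.87% and 3.34% of all genes. Without the second WT SD library or without the second WT HFD library 2 members were called, Hist1h2bc and Hist1h2be, and 7.45% and 4.19% of all genes.

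In KO mice, HFD and SD differed in none of the 31 members by limma, against 1.07% of all genes. The 1 member with an unadjusted p under 0.05 is likewise named without a comparison to all genes at that limit. This was Hist1h2bj (H2B), with 1 and 3 normalized counts on SD against 37 and 29 on HFD and a log2 fold change of 3.58 (SE 0.83, adjusted p = 0.063). Only 49.6% of its 75-base words were its own. Hist1h2be had 97 and 71 on SD against 112 and 68 on HFD, and Hist1h2bc 413 and 646 against 571 and 338. Both genes overlapped between the diets in KO mice, with log2 fold changes of 0.07 (SE 0.37) and -0.23 (SE 0.26).

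Whether the effect of genotype differed between the diets was tested as an interaction. It was called in 2 of the 31 members (6.45%), against 17.4% of all genes. The genotype effect on HFD minus that on SD was -1.69 on the log2 scale for Hist1h2bc (SE 0.37, adjusted p = 0.012) and -2.20 for Hist1h2be (SE 0.53, adjusted p = 0.017). Both calls were lost with both WT HFD libraries merged into 1 (adjusted p = 0.067 and 0.079), without either of the WT HFD libraries and without the first WT SD library, where between 2.75% and 5.43% of all genes were called. Without the second KO HFD library the call of Hist1h2bc remained. For the linker histone genes the interaction was not called, with 1.70 (SE 0.77, adjusted p = 0.14) for Hist1h1d and 0.30 (SE 1.11, adjusted p = 0.87) for Hist1h1b. The interaction was also called below 0 in 6 of 7 adipocyte markers. It was called above 0 in 9 of 10 macrophage, 4 of 5 endothelial, 4 of 5 erythroid and 1 of 5 mesothelial markers. Of 5 fibroblast and progenitor markers 3 were called above and 1 below 0, and of 5 lymphocyte markers 0. The part of other cells in these histone values was not tested.

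The division into short and extended models was followed over all libraries as a description, since it was drawn after the values had been seen. The normalized counts of the 40 short members summed to 535 and 504 in WT and 620 and 490 in KO mice on SD. On HFD they summed to 396 and 377 in WT and 688 and 743 in KO mice. The mean of the KO HFD libraries was 1.85 times that of the WT HFD libraries as deposited and 2.43 times per M. The 14 extended members summed to 1648 and 1638, 1552 and 1727, 2633 and 2716, and 1768 and 1245 in the same 4 groups. Here the ratio of KO to WT on HFD was 0.563 as deposited and 0.729 per M. This difference was that of Hist1h1c, Hist1h2bc and Hist1h2be, which had been called. The other 11 extended members summed to 235 and 208 in WT and 214 and 219 in KO mice on HFD, a ratio of 0.977, and to 239 and 214 in WT mice on SD.

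**Figure D4:**
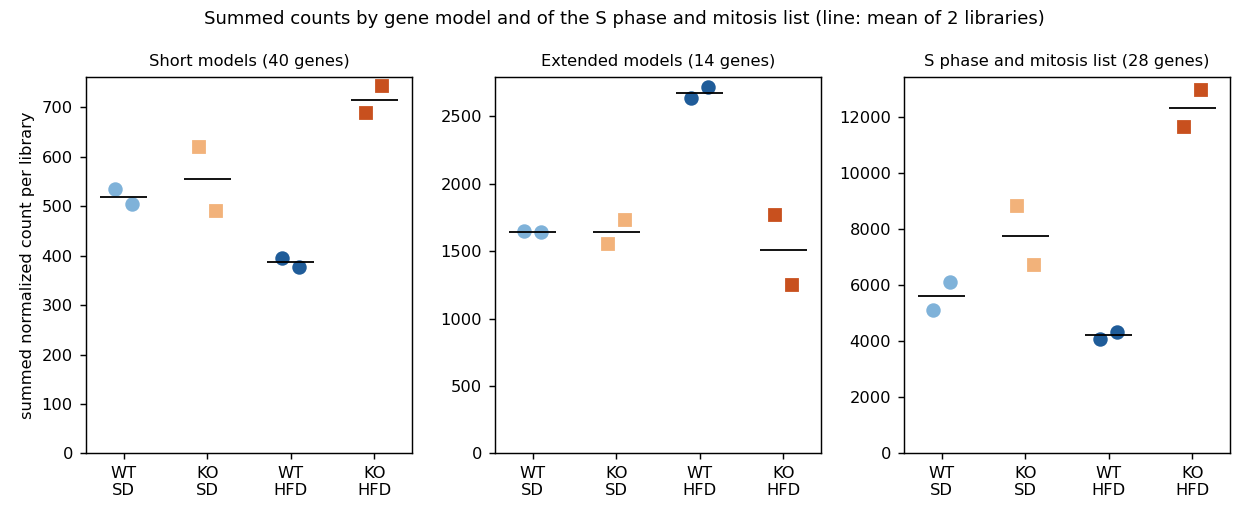
Summed normalized counts per library of the 40 short histone gene models, the 14 extended ones and the 28 genes of the S phase and mitosis list, with 2 points per group and a line at their mean, each panel on its own axis from 0. In the left and right panels the WT HFD libraries are lowest and the KO HFD libraries highest, and in the middle panel the WT HFD libraries are highest.

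The split did not hold for every gene. Of the 20 short members tested, 6 were called higher and 0 lower in KO mice on HFD, where 17.1% of all genes were called higher and 15.1% lower. Without the 3 members that passed the limit through the KO HFD libraries, 4 were called higher. The log2 fold changes of the short members, again without these 3, began at -1.12 and reached 3.08 in Hist2h2ac. That of Hist2h2ac, which was near the detection limit in WT mice on HFD, was 1.16 with a pseudocount of 8 and 5.06 with 0.1. Of the 11 extended members tested, 3 were called lower and 0 higher, and their log2 fold changes ranged from -2.10 to 1.06. Hist2h2be, an extended H2B gene with all of its 75-base words its own, had 39 and 18 normalized counts in WT against 57 and 56 in KO mice on HFD, with a log2 fold change of 1.06 (SE 0.48, adjusted p = 0.10). It was called higher when all libraries were scaled to the same total. Hist2h4, an extended H4 gene, had 40 and 31 against 42 and 58.

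Genes that act with the clustered histone genes were counted in the same fit. Of these lists, 31.2% of the histone mRNA factors, 44.4% of the chaperones, 45.5% of the replacement histones and 64.3% of the S phase and mitosis genes were called between KO and WT on HFD, against 32.2% of all genes. Of 28 genes for S phase and mitosis, 18 were called higher and 0 lower in KO mice on HFD, with a median log2 fold change of 1.497. Their summed counts were 4084 and 4343 in WT and 11641 and 12988 in KO mice on HFD, and 5119 and 6136 against 8819 and 6736 on SD. Mki67, a marker of cycling cells, had 369 and 408 against 3796 and 4226 on HFD. Cdt1, which licenses replication origins, had 33 and 34 against 221 and 293. On SD 1 of the 28 was called, Mki67, where 4.71% of all genes were called. In WT mice 5 were called lower on HFD than on SD, where 9.22% of all genes were called lower. The interaction was called above 0 in 8 of the 28 and below 0 in 0, and in either direction in 17.4% of all genes. The summed counts of the short histone genes and of the S phase list were higher in both KO than in both WT libraries on HFD. So were those of the macrophage, lymphocyte, fibroblast and progenitor, endothelial, erythroid and mesothelial markers, while adipocyte markers were lower and neutrophil markers overlapped. Of the 20 short members tested, 4 had log2 fold changes below 0. On SD the macrophage sums were 39349 and 24641 in KO against 5119 and 4738 in WT mice. Those of the short histone genes overlapped on SD, with 620 and 490 against 535 and 504. The part of macrophages or other cells in the histone counts was not tested. In bulk RNA, more cells of a type and more RNA per cell cannot be told apart.

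Among the factors that make and degrade histone mRNA, 3 of 16 were called higher and 2 lower in KO mice on HFD, a share close to that of all genes, with a median log2 fold change of -0.15. Slbp, which encodes the stem-loop binding protein, had 378 and 271 normalized counts in WT against 352 and 322 in KO mice on HFD (log2 fold change 0.07, SE 0.25). Lsm11, a subunit of the U7 snRNP, had 31 and 59 against 156 and 119, with a log2 fold change of 1.65 (SE 0.38, adjusted p = 0.0054). Zfp473, a zinc finger protein of the same processing complex, had 24 and 2 against 44 and 45 (adjusted p = 0.040, limma), and Eri1, an exonuclease of histone mRNA decay, had 249 and 288 against 441 and 413 (adjusted p = 0.037, limma). Cpsf3, the endonuclease that also cuts polyadenylated mRNAs, was lower, with 1626 and 1640 against 911 and 917 (log2 fold change -0.84, SE 0.16, adjusted p = 0.0014). Mif4gd, which bridges SLBP and the translation machinery, was lower with 891 and 819 against 438 and 310. Npat, the transcriptional coactivator of the clusters, had 313 and 303 against 196 and 217 and was not called (adjusted p = 0.062, limma). On SD and between the diets none of the 16 was called by limma.

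Of 18 histone chaperones, 5 were called higher and 3 lower in KO mice on HFD. The 2 subunits of the replication-coupled assembly factor CAF-1 on the list were among the higher genes, with 7 and 15 normalized counts in WT against 169 and 128 in KO mice for Chaf1b and 61 and 84 against 220 and 128 for Chaf1a. Asf1b, Nasp and Hjurp were the others called higher. Asf1a, Daxx and Nap1l1 were called lower, and Nap1l1, an H2A and H2B chaperone, had 5151 and 5103 in WT against 1732 and 1552 in KO mice, with a log2 fold change of -1.64 (SE 0.15). Between the diets in WT mice, Nap1l1 was called higher and Nasp and Hjurp lower on HFD, 3 of the 18 against 18% of all genes.

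The 11 replacement histone genes outside the clusters had summed counts of 5923 to 7456 per library, of which H3f3b gave 2855 to 4715. In KO mice on HFD 3 of 11 were called higher and 2 lower. H3f3b, which encodes the H3.3 variant, had 2855 and 2907 in WT against 4152 and 4715, and H2afz, which encodes H2A.Z, had 336 and 211 against 456 and 536. Cenpa, the H3 variant of centromeres, had 13 and 45 against 118 and 125, with a log2 fold change of 2.27 (SE 0.52, adjusted p = 0.0050). The linker histone genes H1f0 and H1fx were lower, with 947 and 972 against 586 and 468 and with 283 and 289 against 148 and 64. H1f0 and H1fx thus fell together with the clustered gene Hist1h1c, while Hist1h1a, Hist1h1b and Hist1h1d rose. None of the 11 was called on SD or between the diets by limma.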

How the data were processed

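RNA from isolated white adipocytes was sequenced as single-end reads in 8 libraries. Reads had been trimmed with Reaper, aligned to GRCm38 with STAR 2.5.2b and counted on exons with featureCounts 1.5.1, and the authors used DESeq2 1.14.1. Whether counting used the strand is not stated in the sources used here. The deposited values are a score, namely the authors' gene counts scaled with 1 factor for each library and then rounded, so that whole reads per gene cannot be recovered and no count model was run. The step of the values gave the worth of 1 read and the depth, 13.99 to 22.3 M reads on genes. Counting floors of 3 reads cover counting error only, since reads were amplified without molecular identifiers.

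Groups came from the labels. Genes with a mean of at least 5 (18800 of 30387) were fitted with limma 3.58.1 (R 4.3.3, lmFit and eBayes with trend) on log2(value + 1), with 4 group means, no covariates, and 4 residual degrees of freedom. All adjusted p-values are Benjamini-Hochberg values from this fit over all genes tested, and measure the spread between these libraries, 2 mice per group. For a single gene an exact permutation test of 2 against 2 cannot go below 0.333. On simulated data for the comparison of genotypes on HFD (18813 genes), 89 of 200 changed genes and 0 of none changed were called. Named members were the 12 with the highest mean per kb, all called members, and those with a sequence feature. The histone genes and the lists were chosen with earlier results of these data known. Transcript structure came from GENCODE vM21, where 52 members were found by identifier and 2 by symbol, and 34 had the same span as in the table. Promoter windows came from RefSeq. Alternatives were pseudocounts of 0.1 and 8, no filter or a mean of at least 50, 3 other scalings, a fit of 2 groups, a block for the replicate number, robust eBayes, both WT HFD libraries merged into 1, other limits of a call, and leaving out each library. Analyses used Python 3.11.15, pandas 2.3.3, numpy 2.4.6, Biopython 1.88 and matplotlib 3.10.9.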

Additional observations from a re-analysis of the deposited data

Results flagged for a closer look

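The effect of genotype differed between the diets in 2 of 31 clustered histone genes (6.45%), by the interaction term of the limma fit, against 17.4% of all genes. The term was also called in 6 of 7 adipocyte markers, with the same sign as in these 2 genes. For Hist1h2bc the effect on HFD minus that on SD was -1.69 on the log2 scale (adjusted p = 0.012), and Hist1h2be gave -2.20 (adjusted p = 0.017). Both WT libraries on HFD lay above both Ad-Yap/Taz-KO libraries on HFD in each gene. With both WT HFD libraries merged into 1 neither difference was called (adjusted p = 0.067 and 0.079).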

How the results depend on the processing

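Between the genotypes on HFD, 9 histone genes were called. The count was 5 with no filter, 3 of 7 tested with a mean of at least 50, 4 with quantile normalization, 2 at adjusted p 0.01 and log2 1 and 2 with both WT HFD libraries merged into 1. Leaving out 1 library gave 1 to 9, the lowest without the second Ad-Yap/Taz-KO HFD library. For HFD against SD in WT, 4 were called, against 2 with a pseudocount of 0.1, with no filter, with a mean of at least 50 and at the stricter limits, and 1 with both WT HFD libraries merged into 1. Leaving out 1 library gave 1 to 5. The interaction called 2 genes, and 0 with no filter, at the stricter limits or with both WT HFD libraries merged into 1. Leaving out 1 library gave 0 to 2. The share of all genes called on HFD (32.2%) was 16.5% with no filter, 41.9% with a mean of at least 50, 27.4% with quantile normalization, 16.1% at the stricter limits and 18.3% with both WT HFD libraries merged. In WT (18%) it was 16.8% with a pseudocount of 0.1, 5.6%, 26.3% and 4.98% with no filter, the higher filter and the stricter limits, and 2.87% merged, and for the interaction (17.4%) 2.37%, 2.75% and 3.89% with no filter, merged and at the stricter limits. In Ad-Yap/Taz-KO mice HFD against SD called 0, and 1 with a pseudocount of 8, where 1.76% of all genes were called. No called gene changed sign under any alternative, and the cause of the changes in number was not tested. The median over the members on HFD (0.90) was 0.02 with quantile normalization and -0.39 with a mean of at least 50. Equal library totals moved the median of all genes on HFD from 0.09 to 0.47 and in WT from -0.08 to -0.48. The replicate numbers did not pair the libraries (correlations of deviations from -0.11 to 0.04). With the replicate block 8, 2 and 2 histone genes were called in the comparison of genotypes on HFD, of diets in WT and in the interaction. The shares of all genes called with this block were 30.4%, 15.6% and 13.7%. Depth and 2 libraries per group limit members with few reads.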
